A study of Mus musculus with 4 samples.

Results

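The genes described here were 7 genes that mark classical monocytes of the blood: Plac8, Chil3, Vcan, F13a1, Hp, Fn1 and Mgst1. They are 7 of the 11820 genes of the deposited count matrix, and all 7 were found in it. The genes were selected on earlier results of these same cells, as monocyte genes that fade while MHC class II and C1q rise and that persist in MHC II-high cells on high-fat diet (HFD). Their fall along that path and their levels in MHC II-high cells are therefore a description, and where calls of a fit over all genes are counted there, nothing is read from them. Single-cell RNA-sequencing was done on sorted colonic macrophages and monocytes of male C57/Bl6N mice aged 6 to 7 weeks. Mice 9 and 11 received chow and mice 1 and 3 a coconut-based HFD for 1 week. Live CD45+ cells that lacked lineage markers and CD24, carried CD11b and were positive for Ly6C or CD64 were sorted. Each mouse gave 1 library, so n = 2 mice per diet, and the diet effect rests on the spread between mice, not between cells.

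Monocytes that express Ly6C leave the blood, enter the colon and replace part of its macrophages throughout life. On arrival they gain MHC class II and then lose Ly6C and CCR2, while C1q, CX3CR1 and the other features of resident macrophages appear. Genes of the circulating monocyte are switched off along this path.

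Plac8 (chr5:100553725-100572245, minus strand, GRCm38) encodes a small cysteine-rich protein of monocytes and granulocytes. Chil3 (chr3:106147554-106167564, minus strand) encodes the secreted chitinase-like lectin Ym1. Its near-identical neighbour Chil4 was not analysed here, and reads may have been divided between both copies, so the level of Chil3 is uncertain to that extent. Hp (chr8:109575128-109579172, minus strand) encodes haptoglobin, which binds free haemoglobin. Mgst1 (chr6:138140316-138156755, plus strand) encodes a membrane-bound glutathione S-transferase that detoxifies lipid peroxides. Fn1 (chr1:71585520-71653200, minus strand) and Vcan (chr13:89655312-89742509, minus strand) encode the matrix proteins fibronectin and versican. F13a1 (chr13:36867178-37050244, minus strand) encodes the catalytic A subunit of coagulation factor XIII, which cross-links fibrin. Annotated genes on the other strand overlap Vcan, F13a1 and Fn1, and whether the counting used strand is not given in the sources used here.

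To show what lies before genes that share a decline, the 250 bases before 1 annotated start are shown for 4 of them, read on the strand of the gene from RefSeq on GRCm38.p6. Capitals mark a match to the letters TTGCNNAA, bound by C/EBP factors, or GAGGAA, bound by PU.1, on either strand; both families are known as regulators of monocyte genes.
Plac8, chr5:100572206-100572455: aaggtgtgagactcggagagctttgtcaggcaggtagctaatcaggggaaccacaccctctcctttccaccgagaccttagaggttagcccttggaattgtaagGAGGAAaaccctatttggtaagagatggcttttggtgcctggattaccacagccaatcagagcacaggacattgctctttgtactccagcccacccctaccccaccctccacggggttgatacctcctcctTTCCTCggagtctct
Chil3, chr3:106167565-106167814: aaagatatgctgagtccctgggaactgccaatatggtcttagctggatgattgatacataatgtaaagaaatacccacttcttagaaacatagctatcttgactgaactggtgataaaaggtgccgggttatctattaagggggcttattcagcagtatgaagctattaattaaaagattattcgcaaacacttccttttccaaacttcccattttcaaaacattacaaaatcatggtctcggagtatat
F13a1, chr13:37050245-37050494: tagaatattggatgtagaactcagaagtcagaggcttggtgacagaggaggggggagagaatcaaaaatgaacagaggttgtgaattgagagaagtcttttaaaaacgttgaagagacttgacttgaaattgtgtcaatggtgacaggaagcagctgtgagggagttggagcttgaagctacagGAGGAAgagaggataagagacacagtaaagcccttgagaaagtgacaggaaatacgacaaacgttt
Mgst1, chr6:138140277-138140526: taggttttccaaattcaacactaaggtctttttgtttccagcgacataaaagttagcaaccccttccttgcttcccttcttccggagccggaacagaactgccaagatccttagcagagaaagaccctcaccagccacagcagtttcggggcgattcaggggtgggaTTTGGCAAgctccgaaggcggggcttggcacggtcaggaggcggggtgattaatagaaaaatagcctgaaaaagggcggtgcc
Plac8 holds 2 matches to the PU.1 letters in this window, F13a1 holds 1, Mgst1 holds 1 match to the C/EBP letters, and Chil3 holds none of either. Of 4 further windows in the table, that of Vcan and the other start of F13a1 hold no match, the other start of Plac8 holds 1 match to the C/EBP letters and that of Mgst1 holds 1 to the PU.1 letters. Among 32851 promoter windows of the same length in the table, 9.56% hold the C/EBP letters and 23.3% the PU.1 letters. A match is a description of the sequence and not a measured binding site.

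The libraries held 904 to 2002 cells, 5420 in all, with 3824228 to 7947893 unique molecular identifiers (UMIs, each standing for 1 captured RNA molecule) per mouse and a median of 3266 to 3926 UMIs per cell. Scrublet marked 41 cells as doublets, which were kept. Of 5397 barcodes, 23 occurred in more than 1 library. Levels are given as UMIs per 1000000 UMIs of the summed cells (CPM), with exact Poisson intervals of 95% that cover counting error only. The 7 genes differed much in depth: over all cells Plac8 had 62361 UMIs, Chil3 35047, Hp 4819, Mgst1 4204, Fn1 1874, Vcan 325 and F13a1 198. Values of Vcan and F13a1 are imprecise for that reason.

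Cells were placed by their own share of MHC II transcripts (H2-Aa, H2-Ab1, H2-Eb1 and Cd74) and C1q transcripts (C1qa, C1qb and C1qc) per 10000 UMIs, with limits of 50 and 200 for MHC II and of 20 and 100 for C1q. None of the 7 genes entered this placing. MHC II-low C1q-low cells numbered 558, or 10.3% of all cells, MHC II-mid C1q-low cells 347, MHC II-high C1q-low cells 745, MHC II-high C1q-mid cells 629 and MHC II-high C1q-high cells 2952, or 54.5%. The MHC II-low C1q-low class made up 10.7% and 2.05% of the cells of the chow mice 9 and 11 and 21.9% and 13.4% of those of the HFD mice 1 and 3. It carried the defining monocyte gene Ly6c2 at 1001 to 2023 CPM and C1qa at 91.6 to 338.5 CPM, whereas MHC II-high C1q-high cells carried Ly6c2 at 5.76 to 149.7 CPM and C1qa at 6573 to 7630 CPM. As the choice of the genes implies, 6 of the 7 stood highest in the MHC II-low or MHC II-mid C1q-low cells of every mouse, while F13a1 did not in every mouse. Markers of other cells were also present. Of 13 neutrophil markers 4 were measured, and their summed level in MHC II-low C1q-low cells was 161.9 and 169.3 CPM on chow against 392.8 and 208 CPM on HFD, with 94 UMIs of S100a8, 297 of Mmp8, 122 of Csf3r and 0 of Mmp9 over the 558 cells. Over the 2952 MHC II-high C1q-high cells the same 4 genes had 4, 44, 260 and 146 UMIs. Chil3, Hp and Plac8 are also made by granulocytes. The sort left out CD24+ and lineage-positive cells, the authors removed cells not annotated as monocytes or macrophages, and the part of such cells in the levels was not tested. The summed level of 3 immunoglobulin and B cell genes reached 184400 CPM in the 14 MHC II-mid C1q-low cells of chow mouse 9, and 36750 CPM in chow mouse 11, 28170 in HFD mouse 1 and 13260 in HFD mouse 3, against 91.3 to 298 CPM in MHC II-low C1q-low cells.

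**Figure D1:**
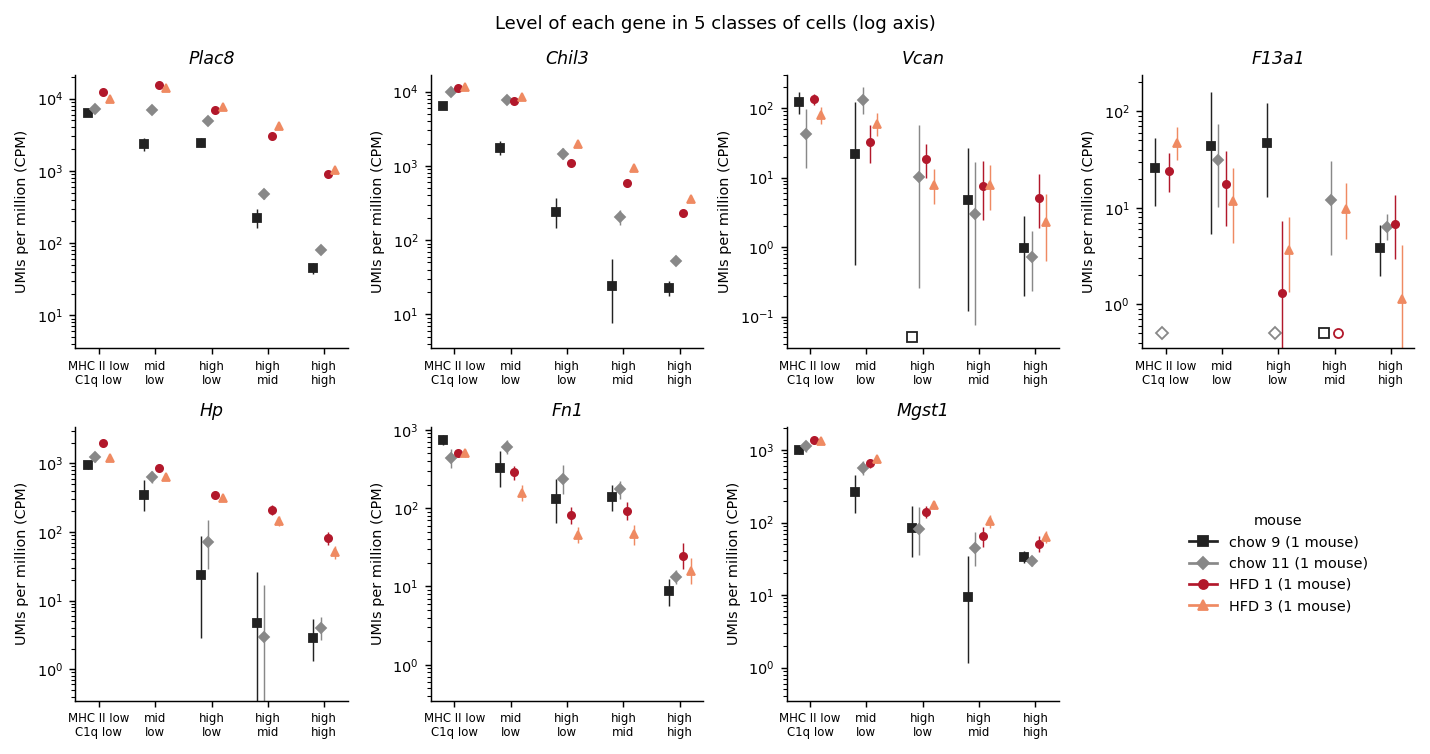
Level of each gene (CPM, log axis) in 5 classes of cells ordered by rising MHC II and C1q, with 1 point per mouse and exact Poisson 95% intervals; open symbols at the foot of a panel are classes with 0 UMIs. Plac8, Chil3 and Hp lie higher in both HFD mice than in both chow mice in the last 2 classes, while Fn1 lies lower in the HFD mice in the classes between.

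In MHC II-low C1q-low cells, none of the 7 genes passed the test between the diets. Plac8 stood at 6206 and 7075 CPM in the chow mice and at 12460 and 9922 CPM in the HFD mice. Each HFD mouse exceeded each chow mouse, a log2 fold change of 0.70 (SE 0.19), which did not pass the threshold of 1% false discovery rate (FDR; edgeR's quasi-likelihood test, adjusted p = 0.102). Plac8 passed without the filter on low counts. Without chow mouse 11 it passed as well, at a log2 fold change of 0.82 and an adjusted p of 0.00262 in edgeR, and its adjusted p ranged from 2.06e-05 to 0.886 over the alternatives. Chil3 stood at 6471 and 9775 CPM on chow against 11160 and 11510 CPM on HFD, with no overlap (log2 fold change 0.42, SE 0.21, edgeR adjusted p = 0.479), and it too passed without chow mouse 11, at an adjusted p of 0.00481. Mgst1 stood at 1004 and 1134 CPM on chow against 1382 and 1329 CPM on HFD, again without overlap (log2 fold change 0.29, SE 0.18, edgeR adjusted p = 0.611).

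The other 4 genes overlapped between the diets in these cells. Hp stood at 934.5 and 1244 CPM on chow against 1946 and 1182 CPM on HFD. Fn1 stood at 739.5 and 431.6 CPM on chow against 507.3 and 500.6 CPM on HFD. Vcan stood at 121.4 and 42.3 CPM on chow, from 33 and 5 UMIs, against 135 and 79.5 CPM on HFD. F13a1 had 7 UMIs in chow mouse 9 (25.8 CPM) and 0 in chow mouse 11, against 24.1 and 47.4 CPM on HFD. In chow mouse 11 the exact Poisson interval ends at 31.2 CPM, and 3 counts would be 25.4 CPM. Their edgeR adjusted p lay between 0.481 and 0.93. None of the 7 genes was called in MHC II-low C1q-low cells by edgeR or DESeq2, 1 of them (Plac8) had an unadjusted p under 0.05 by each tool, and of all 4471 genes tested 0.403% were called higher and 0.112% lower on HFD. Each HFD mouse exceeded each chow mouse for 3 of the 7 genes, and for 24.4% of all genes tested. The median log2 fold change was 0.42 over the 7 genes and -0.0069 over all genes.

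The order in which the genes fell was read along 8 bins of equal cell number over the mean rank of a cell's MHC II and C1q share, as the position in bins at which a gene had dropped to 50% of its highest bin. The median cell of bin 1 held 33.8 MHC II and 0 C1q UMIs per 10000, that of bin 2 202.1 and 7.03, and that of bin 3 556.7 and 40.4. A fall before bin 3 thus took place while MHC II rose and C1q had just appeared. Plac8 in HFD mouse 3 and F13a1 in both chow mice fell later than that. On HFD, Plac8 was the last of the 7 genes to fall, at bin 2.66 in mouse 1 and 3.09 in mouse 3. The other 6 lay between 1.65 and 2.22 in both HFD mice, with means of 1.67 for F13a1, 1.78 for Mgst1, 1.88 for Chil3, 1.91 for Hp, 1.93 for Fn1 and 1.95 for Vcan. Mgst1, Chil3, Hp, Fn1 and Vcan overlapped one another, and F13a1, at 1.65 and 1.7, overlapped Vcan and lay before the other 4. Plac8 also came after the other 6 with 12 bins and along MHC II alone. Along C1q alone F13a1 came after Plac8 in HFD mouse 1, at bin 5.65 against 2.93. In HFD mouse 3 it came before Plac8, at 3.44 against 3.53. With each cell thinned to 2000 UMIs F13a1 again came after Plac8 in mouse 1, at 6.5 against 2.65, and before it in mouse 3, at 1.7 against 3.16. These positions of F13a1 rest on 40 UMIs in mouse 1 and 52 in mouse 3, counted before thinning.

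On chow the order was less clear. Mean positions were 2.02 for Mgst1, 2.03 for Hp, 2.13 for Chil3, 2.42 for Vcan, 2.43 for Plac8, 2.52 for Fn1 and 4.1 for F13a1. Each of the 7 genes fell later in chow mouse 11 than in chow mouse 9. The gap was widest, F13a1 aside, for Hp, at bin 1.63 in mouse 9 and 2.42 in mouse 11, and for Fn1, at 2.12 and 2.92, and narrowest for Vcan, at 2.34 and 2.5. The positions of the 6 genes other than F13a1 overlapped in part between the mice. F13a1, at 3.31 and 4.89, lay after the other 6 in both mice. Along C1q alone the 2 mice differed, and F13a1 fell last in mouse 9, at 3.23, and first in mouse 11, at 1.5. Along the mean rank of both shares F13a1 peaked in bin 2 in mouse 9 and in bin 3 in mouse 11, not in bin 1. MHC II-low C1q-low cells held 23.3% and 0.0% of the F13a1 UMIs of chow mice 9 and 11. MHC II-high C1q-high cells held 40.0% and 57.9%. In mouse 11, 21 of 76 UMIs lay in 66 C1q-high cells of middle MHC II. In mouse 9, 4 of 30 lay in 12 C1q-high cells of low MHC II. The part of these C1q-high cells in the positions of F13a1 was not tested.

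**Figure D2:**
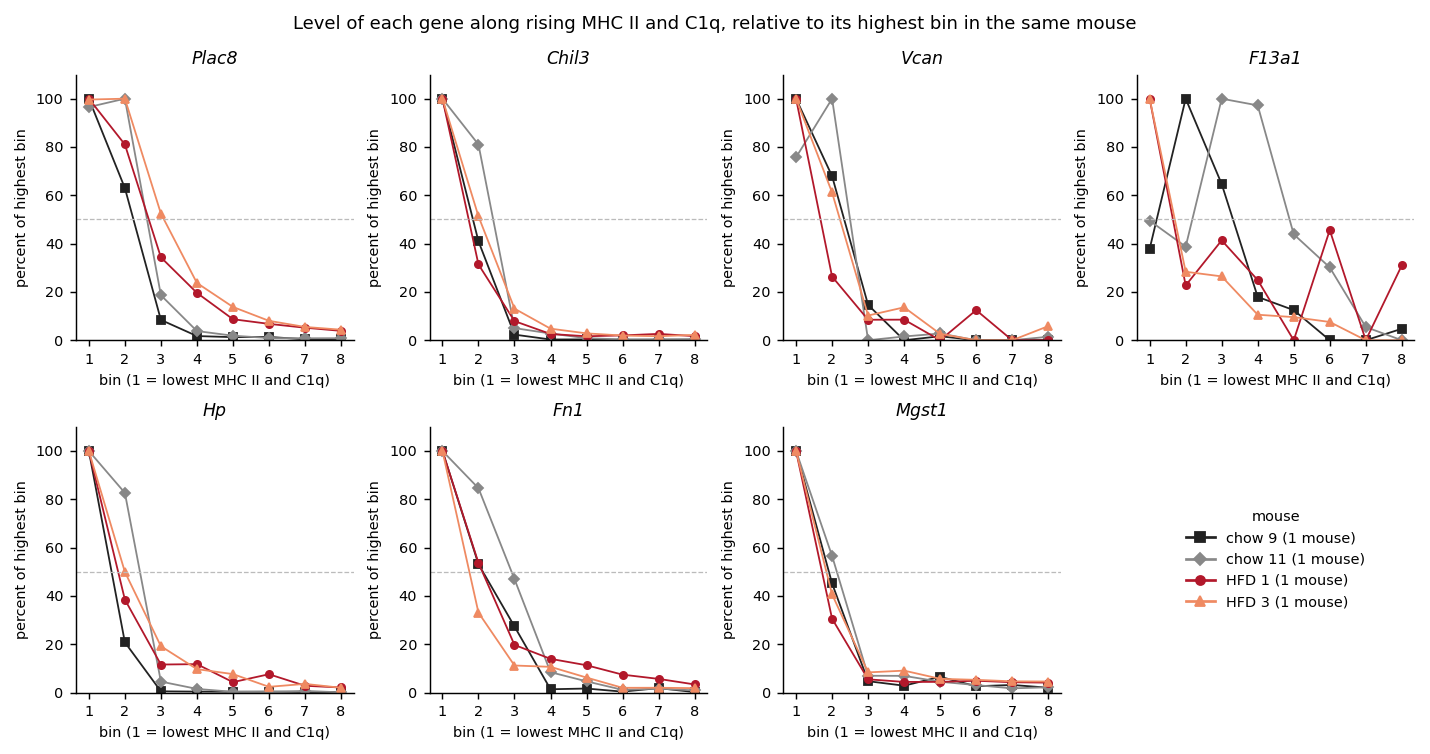
Level of each gene in 8 bins of rising MHC II and C1q (x axis), as a percent of its highest bin in the same mouse (y axis), with 1 line per mouse and a dashed line at 50%. Plac8 crosses the dashed line later than the other genes in both HFD mice, at bins 2.66 and 3.09, and F13a1 peaks after bin 1 in both chow mice.

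In MHC II-mid C1q-low cells of the HFD mice Plac8 stood at 15450 and 13780 CPM, which was 124% and 138.9% of the level in the MHC II-low C1q-low cells of the same mice. In the same step Chil3 dropped to 67.8% and 73.2%, Hp to 44.7% and 53.9% and Mgst1 to 47.3% and 56% in those mice. Plac8 was thus kept better than these 3 genes in the HFD mice. In chow mouse 11 it stood at 96.6% and in chow mouse 9, from 14 cells, at 37.3%, where Hp stood at 37.4%. On chow Plac8 did not stand out, since Fn1 stood at 141.4% in mouse 11 and Vcan, from 5 and 21 UMIs, at 312.3%. The difference between the diets in this step was not tested, nor was the part of the immunoglobulin transcripts that these cells held.

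In MHC II-high C1q-low cells, the next class, Plac8 was still abundant on both diets. It kept 39.5% and 68.4% of its MHC II-low level in the chow mice and 56.4% and 77.1% in the HFD mice, and these ranges overlapped. A UMI of Plac8 was found in 56.5% and 84% of the chow cells and 98% and 96.5% of the HFD cells after each cell was thinned to 2000 UMIs, against 53.6%, 86.8%, 96.2% and 98% unthinned. Chil3 kept 3.68% and 15% on chow and 9.74% and 17% on HFD. Mgst1 kept 8.29% and 7.25% on chow and 10.2% and 13.1% on HFD. Plac8 therefore separated from Chil3 and Mgst1 at this stage in every mouse.

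The levels of Hp and Fn1 lay on opposite sides of chow in the HFD mice in MHC II-high C1q-low cells, and Fn1 was not called. Hp had 2 and 7 UMIs in the chow mice (23.8 and 71.9 CPM) and stood at 344.5 and 310 CPM in the HFD mice, a log2 fold change of 2.64 (SE 0.40). Fn1 stood at 130.8 and 236.2 CPM on chow against 81.5 and 45.8 CPM on HFD, a log2 fold change of -1.69 (SE 0.42). Both genes were without overlap between the diets. Plac8 (2450 and 4838 CPM on chow, 7031 and 7648 CPM on HFD; log2 fold change 0.92, SE 0.24) and Mgst1 (83.3 and 82.2 against 140.7 and 173.9 CPM; 0.87, SE 0.38) also lay higher in both HFD mice, and Chil3 overlapped (237.9 and 1469 against 1087 and 1956 CPM; 0.72, SE 0.42). Of the 7 genes 5 passed the filter on low counts in this class, and 1 of them, Hp, was called higher on HFD, beside 0.624% of all genes tested. Each HFD mouse exceeded each chow mouse for 3 of the 7 genes, each of which had passed the filter, and for 30.9% of all genes tested. Since persistence in MHC II-high cells was part of the choice of genes, nothing is read from these counts. The chow mice held only 28 and 38 such cells, and Hp was no longer called without mouse 9, at a log2 fold change of 2.07, or without mouse 11, at 3.74.

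In MHC II-high C1q-mid cells Fn1 kept 18.7% and 40.1% of its MHC II-low level on chow, where Plac8 kept 3.53% and 6.8%, Chil3 0.368% and 2.08%, and Mgst1 0.948% and 3.95%. Fn1 was thus the best kept of these 4 genes on chow. On HFD Fn1 kept 18.3% and 9.2%, and Plac8, at 24.1% and 42%, was kept best. Fn1 was lower in both HFD mice than in both chow mice in these cells, at 92.8 and 46.1 CPM against 138.1 and 173.2 CPM.

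In the same C1q-mid cells Hp had 1 UMI in each chow mouse, at 4.76 CPM (interval 0.12 to 26.5) and 2.99 CPM (0.0756 to 16.6), and 139 and 146 UMIs in the HFD mice, at 207.9 and 143.1 CPM. Plac8 stood at 219 and 480.9 CPM on chow against 2999 and 4165 CPM on HFD. Chil3 stood at 23.8 and 203.1 CPM on chow against 581.9 and 945.9 CPM on HFD. For all 3 genes the HFD mice lay above the chow mice. Summed immunoglobulin and B cell genes stood at 32040 and 15990 CPM in these cells on chow and at 127.2 and 109.8 CPM on HFD; their part in the difference was not tested.

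In MHC II-high C1q-high cells, the most mature class, the 6 genes other than F13a1 stood at 10.4% or less of their own MHC II-low level. The diets lay apart for these 6 genes. The summed level of 12 measured markers of resident macrophages, C1q genes included, stood in the same class at 88340 and 86710 CPM in the chow mice and at 52570 and 42320 CPM in the HFD mice. It was lower in the HFD mice in the other MHC II-high classes too, at 17160 and 20200 against 5110 and 4644 CPM in C1q-low and at 36780 and 34540 against 14910 and 12240 CPM in C1q-mid cells, and its part in the differences of the 7 genes was not tested. Plac8, with 44.5 and 79.5 CPM on chow, stood at 912.6 and 1029 CPM on HFD, a log2 fold change of 3.83 (SE 0.25). Chil3, with 22.4 and 52.8 CPM on chow, stood at 230.1 and 361.6 CPM on HFD, a log2 fold change of 2.82 (SE 0.35). Hp stood at 2.88 and 4.05 CPM on chow, from 9 and 28 UMIs, against 80.4 and 50.3 CPM on HFD, from 94 and 88 UMIs. Each of the 3 was higher in both HFD mice, by a wider margin than in MHC II-low cells.

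The other 4 genes differed less in C1q-high cells. Mgst1 stood at 33.6 and 29.2 CPM on chow against 51.3 and 64 CPM on HFD (log2 fold change 0.78, SE 0.21). Fn1 stood at 8.63 and 13.3 CPM on chow against 24.8 and 16 CPM on HFD, the opposite direction to that in the C1q-low and C1q-mid MHC II-high cells. Vcan had 3 and 5 UMIs on chow (0.959 and 0.723 CPM) and 6 and 4 on HFD (5.13 and 2.29 CPM). F13a1 overlapped, at 3.84 and 6.36 CPM on chow against 6.84 and 1.14 CPM on HFD.

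Of the 7 genes 3 passed the filter on low counts in C1q-high cells (Plac8, Chil3 and Mgst1), and Plac8 and Chil3 were called higher on HFD, beside 2.92% of all genes tested. Each HFD mouse exceeded each chow mouse for 6 of the 7 genes, of which 3 had passed the filter, and for 36.6% of all genes tested, which had all passed it. The diet effect was larger in C1q-high than in MHC II-low C1q-low cells by 3.13 (SE 0.22) for Plac8, 2.39 (SE 0.23) for Chil3 and 3.56 (SE 0.30) for Hp on the log2 scale, and these 3 of the 7 genes were called in edgeR's interaction test, beside 0.879% of all genes tested. Between MHC II-low C1q-low and MHC II-high C1q-low cells the interaction test called none of the 7 genes and 0.0% of all genes. This absence of calls among the 7 genes did not hold with 1 mouse left out. Without chow mouse 11 the log2 difference was 0.77 for Plac8, 1.84 for Chil3 and 3.1 for Hp. It was 2.52 for Hp without HFD mouse 1 and -2.22 for Fn1 without chow mouse 9. With all mice 3 of the 7 and 435 of all 4978 genes had an unadjusted p under 0.05, and no other tool was run on the interaction. These contrasts chose the genes, so the calls are a description. Without HFD mouse 3 Chil3 was no longer called in C1q-high cells, at a log2 fold change of 2.48.

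As a share of each gene's own MHC II-low level, C1q-high cells kept 0.716% and 1.12% of Plac8 on chow and 7.32% and 10.4% on HFD. They kept 0.346% and 0.54% of Chil3 on chow and 2.06% and 3.14% on HFD, and 0.308% and 0.325% of Hp on chow and 4.13% and 4.25% on HFD. Mgst1 was kept at 3.34% and 2.58% on chow and at 3.71% and 4.81% on HFD, and Fn1 at 1.17% and 3.08% on chow and 4.89% and 3.2% on HFD. The genes did not keep 1 common share. On chow Mgst1 was kept better than Plac8, Chil3 and Hp in both mice, and on HFD Plac8 was the best kept of these 5 genes in both mice. The median over the genes with a value was 0.79% and 1.42% in the chow mice and 4.13% and 3.19% in the HFD mice.

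The share of single cells with a UMI was counted next. It includes UMIs of RNA leaked from broken cells, whose part was not tested. At 2000 UMIs per cell, 6.71% and 11.8% of the C1q-high cells on chow and 67.5% and 67.6% on HFD held a UMI of Plac8 (14.1%, 19.2%, 84.9% and 89.3% unthinned). Chil3 was found in 2.56% and 5.79% of these cells on chow and in 30.8% and 37.9% on HFD, and Hp in 0.32% and 0.777% on chow and in 11.2% and 9.48% on HFD. On HFD 33.3% and 31.5% of the cells held exactly 1 UMI of Plac8, and 18.3% and 23.6% held 3 or more. The variance of the Plac8 count was 6.1 and 6.15 times its mean in the HFD mice, where counts drawn at 1 common rate give a ratio of about 1. The expected share of cells without Plac8 at such a rate was 16.3% and 11.2%, and 32.5% and 32.4% were observed. Plac8 was thus unevenly divided among the C1q-high cells on HFD. For Hp the ratio was 1.6 and 2.08.

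Cells with several of the genes at once were rare at the end of the path. In MHC II-low C1q-low cells the mean number of the 7 genes with a UMI was 3.81 and 3.74 on chow and 4.33 and 4.28 on HFD, at 2000 UMIs per cell. In C1q-high cells it was 0.157 and 0.269 on chow and 1.24 and 1.3 on HFD. At least 3 of the 7 genes were found in 0.16% and 0.353% of the C1q-high cells on chow and in 5.83% and 8.26% on HFD.

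The C1q-high class was next divided by C1q share, to see whether the genes sat in the cells nearest to its lower limit; this division was chosen after the data had been seen. On HFD Plac8 fell from 1717 and 1695 CPM at 100 to 150 C1q UMIs per 10000 to 833.2 and 921.5, then 617.7 and 534.1, and then 473.2 and 595.6 CPM at 250 and over. The cells of lowest C1q on chow held 97.3 and 173.8 CPM, below the cells of highest C1q on HFD. Over all cells of a mouse Plac8 stood at 6396 and 5755 CPM on HFD and at 571.2 and 450.1 CPM on chow. The part of RNA leaked from broken cells in these levels was not tested. Chil3 fell from 313.1 and 600.2 CPM to 186.7 and 185.9 CPM on HFD over the same 4 groups. On chow it fell from 69.8 and 187.5 CPM to 16.1 and 27.7 CPM. For Mgst1 no fall with rising C1q was resolved on HFD, with 43.2 and 67.5 CPM in the first group and 43.4 and 45.5 CPM in the last on HFD, and intervals that overlapped.

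**Figure D3:**
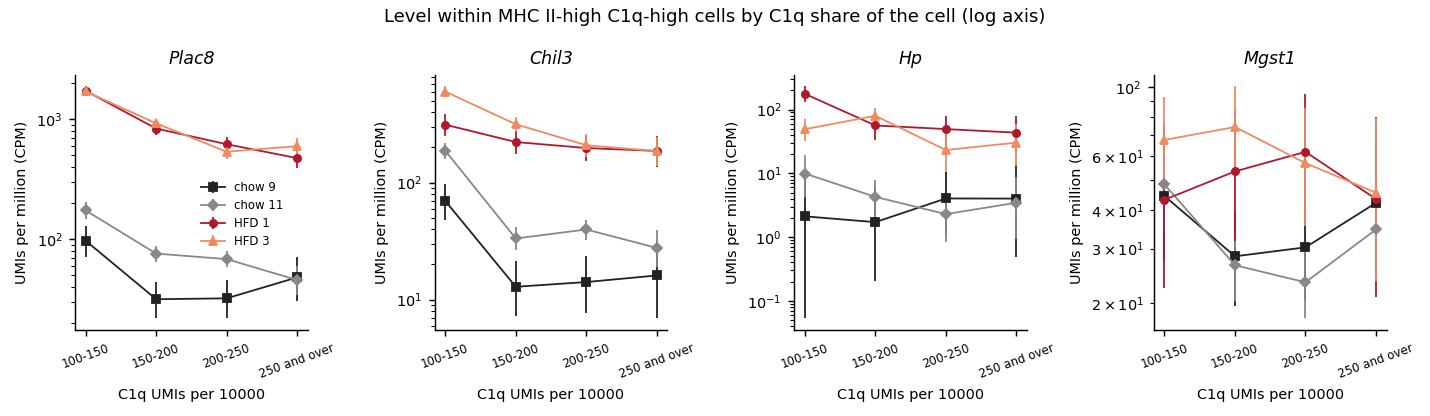
Level of 4 genes (CPM, log axis) in MHC II-high C1q-high cells divided by their C1q share (x axis, C1q UMIs per 10000 UMIs), with 1 line per mouse and exact Poisson 95% intervals. Plac8 of both HFD mice falls from about the same level, 1717 and 1695 CPM, and stays above the chow mice in every group.

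RNA that leaks from broken cells can place a few UMIs of an abundant gene in any droplet, and the HFD samples held more of these transcripts. Over all cells of a mouse Plac8 stood at 571.2 and 450.1 CPM on chow against 6396 and 5755 CPM on HFD. The level in C1q-high cells was therefore set against the level over all cells of the same mouse, beside 2 genes of plasma cells that macrophages should lack, Igha and Jchain. Igha was found in C1q-high cells at 4.47% and 12.1% of its level over all cells on chow and at 4.29% and 6.85% on HFD, and Jchain at 6.1%, 15.1%, 6.79% and 9.36%. Plac8 was found at 7.78%, 17.7%, 14.3% and 17.9%, in each mouse above both immunoglobulin genes. Chil3 stood at 4.43% and 13.1% on chow and at 6.44% and 12.4% on HFD, just below Igha in chow mouse 9, between Igha and Jchain in chow mouse 11 and HFD mouse 1, and above both in HFD mouse 3. Hp was below Igha in both chow mice, at 3.9% and 11%, and above Jchain in both HFD mice, at 12.5% and 15.7%. Mgst1 stood at 31.6% and 46.2% on chow and at 12.2% and 21.2% on HFD. F13a1 lay above it on chow, at 49% and 66.5% from 12 and 44 UMIs. On HFD F13a1 stood at 65.4% and 12.3%, from 8 and 2 UMIs.

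Measured in this way the diets overlapped for Plac8, Chil3 and Fn1, which stood at 11.5% and 29.4% on chow and 13.8% and 16.5% on HFD. They did not overlap for Hp, which was higher in the HFD mice, or for Mgst1, which was lower in them. C1q-high cells made up 74% and 81.6% of all cells on chow and 28.8% and 24% on HFD, so the level over all cells is that of unlike mixtures, and Mgst1 itself stood higher in C1q-high cells on HFD, as given above. Of 951 to 1843 genes with at least 500 UMIs in a mouse, those of the 7 that reach it included, the median gene stood in C1q-high cells at 87.9% to 98% of its level over all cells. Among these genes, which leave out the immunoglobulin genes, Chil3 had the lowest value in both HFD mice and in chow mouse 9, and Igha lay lower still in both HFD mice. How much of the UMIs in C1q-high cells came from free RNA was not tested, since empty droplets were not analysed here. C1q-high cells held only 4.36% and 5.6% of all Plac8 UMIs of the HFD mice.

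**Figure D4:**
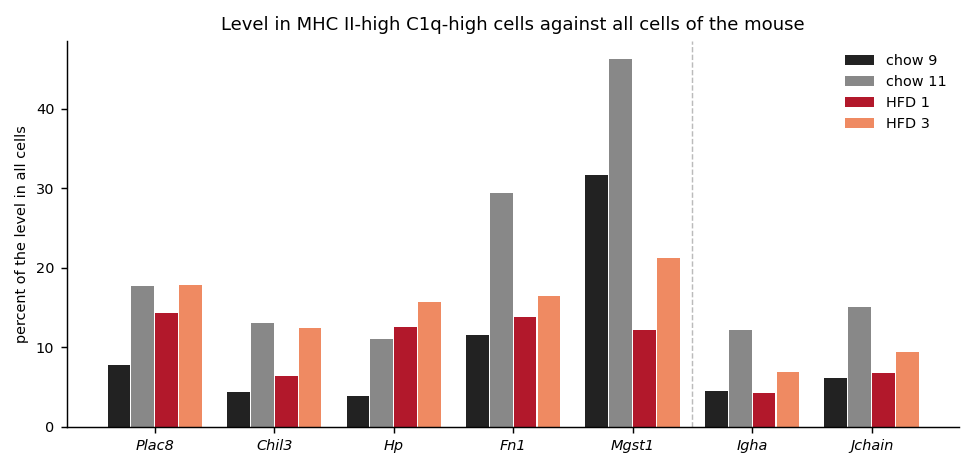
Level in MHC II-high C1q-high cells as a percent of the level over all cells of the same mouse (bars from 0, 1 per mouse), for 5 of the monocyte genes and, right of the dashed line, for the plasma cell genes Igha and Jchain. Plac8 is above Igha and Jchain in each mouse, Chil3 is above both in HFD mouse 3, and Mgst1 is highest in the chow mice.

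F13a1 had a second site, the C1q-high cells of any MHC II share that carried a UMI of Lyve1 or Cd163, markers of long-lived tissue macrophages. This set is wider than the MHC II-high C1q-high class above. It adds 12 MHC II-low and 11 MHC II-mid cells of chow mouse 9, with 4 and 0 UMIs of F13a1. Of chow mouse 11 it adds 15 and 66 such cells, with 2 and 21 UMIs. Cells with a UMI of Lyve1 or Cd163 numbered 37 and 169 in the chow mice, and only 6 and 3 in the HFD mice. F13a1 stood at 39.8 and 49.7 CPM in these cells on chow. In the C1q-high cells of any MHC II share without either gene it stood at 2.97 and 5.25 CPM, and the intervals did not overlap. In the HFD mice the positive cells held 3 and 1 UMIs of F13a1, 213.4 CPM (interval 44 to 623.7) and 132.6 CPM (3.36 to 738.6), and these sums of few cells entered the test. Over the 4 mice F13a1 was higher in the positive cells, by a log2 fold change of 3.44 (SE 0.50; edgeR, adjusted p = 2.16e-09). The 6 and 3 positive cells of the HFD mice are under the minimum of 20 cells kept elsewhere. F13a1 did not pass the filter on low counts in the MHC II-high C1q-high class, where 1.05% and 2.14% of the chow cells held it. It entered this contrast through the positive cells, where it was high. Its p-values and calls here are therefore a description, and nothing is read from them. With the 2 chow mice alone, both of them higher in the positive cells, a choice made after the data had been seen, the log2 fold change was 3.19 (edgeR adjusted p = 3.19e-07). The rule by which the genes were chosen did not use this contrast.

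Of the 7 genes 4 passed the filter in this comparison, F13a1 through the positive cells. F13a1 was the one called higher, beside 0.976% of all genes tested, and nothing is read from that call. Mgst1 stood at 119.5 and 66.3 CPM in the positive and 29.7 and 28.9 CPM in the negative cells on chow, a log2 fold change of 1.06 (SE 0.38) over the 4 mice that did not pass (edgeR adjusted p = 0.15). With the chow mice alone it passed, at 1.32 and an adjusted p of 0.0022 in edgeR. Plac8 (log2 fold change -0.44, SE 0.51) and Chil3 (-0.60, SE 0.44) did not pass, and the direction of Plac8 turned with the chow mice alone, to 0.71. The Lyve1 or Cd163 positive cells of the chow mice also held less MHC II, with a median of 403 and 520.2 UMIs per 10000 against 1007 and 1011. In chow mouse 11 the 66 C1q-high cells of middle MHC II held F13a1 at 109.7 CPM and Mgst1 at 125.4 CPM, so Lyve1 or Cd163 and lower MHC II cannot be told apart here as companions of F13a1.

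**Figure D5:**
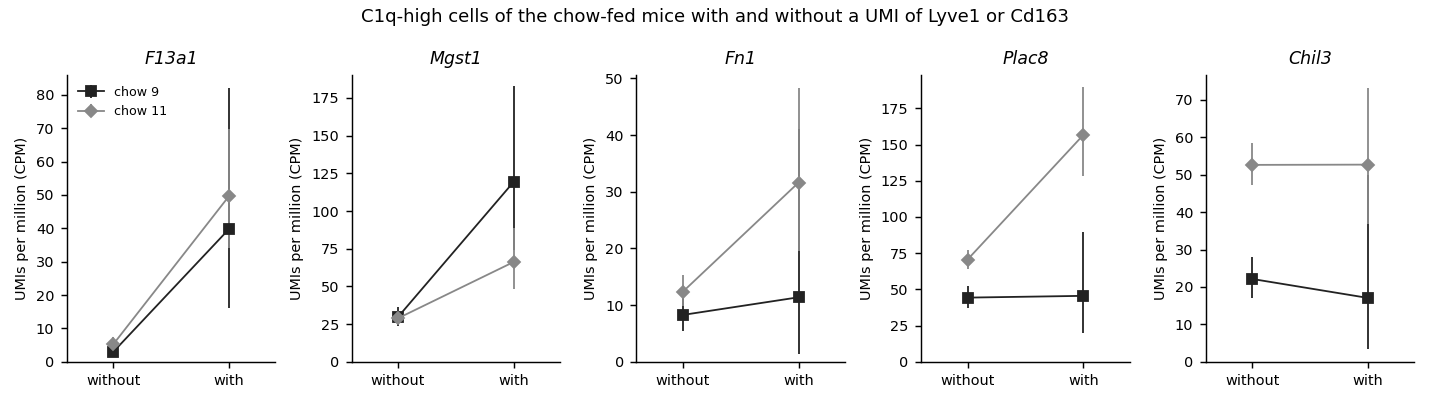
Level of 5 genes (CPM) in C1q-high cells of any MHC II share of the 2 chow mice, without and with a UMI of Lyve1 or Cd163. Each mouse has 1 line, with exact Poisson 95% intervals. F13a1 stands at 2.97 and 5.25 CPM without and at 39.8 and 49.7 CPM with such a UMI, Mgst1 is higher with it in both mice, and Chil3 is about level.

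A list of 25 other genes of classical monocytes, chosen with earlier results of these data known, was set beside the 7 genes. The 7 genes were chosen because they fade, so a lower share kept by them follows from that choice and nothing is read from it. On chow the list median covers 24 genes, those with a UMI in MHC II-low C1q-low cells. In C1q-high cells the median gene of this list kept 12.1% and 11.9% of its MHC II-low level on chow and 25.7% and 24.4% on HFD, where the median of the 7 genes was 0.79%, 1.42%, 4.13% and 3.19%. Ccr2, the chemokine receptor that monocytes need to leave the bone marrow, kept 30.3% and 29.1% on chow and 37% and 41.2% on HFD. Ly6c2, which encodes the surface protein Ly6C, kept 0.575% and 0.571% on chow and 4.05% and 8.28% on HFD, in each mouse less than Plac8 did. Msrb1, a methionine sulfoxide reductase, kept 10.8% and 10.2% on chow and 18.9% and 24.4% on HFD.

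Of the 25 genes 24 passed the filter in MHC II-low C1q-low cells, where Samhd1 was called higher on HFD and none lower, beside the 0.403% and 0.112% of all genes given above. These calls changed with 1 mouse left out. The call of Samhd1 was lost without HFD mouse 3, and a gene of the list was also called lower without chow mouse 9 or chow mouse 11. In MHC II-high C1q-low cells 24 passed, none was called higher and Thbs1, which encodes thrombospondin, was called lower, at a log2 fold change of -1.43 (SE 0.20), beside 0.624% of all genes called higher and 0.581% lower. None of the 24 was called without HFD mouse 1, chow mouse 9 or chow mouse 11. In C1q-high cells 19 passed, 8 were called higher, beside the 2.92% of all genes given above, and none lower, beside 2.06%. Without HFD mouse 3 the count was 2 and without HFD mouse 1 it was 5. The 8 were Gda, Ifi27l2a, Ly6c2, Ms4a4c, Msrb1, S100a4, S100a6 and Samhd1, with log2 fold changes from 1.13 to 3.41. Ly6c2 had the largest change of the 8, at 3.41 (SE 0.42). Ccr2 stood higher by 0.70 (SE 0.17) in C1q-high cells and was not called. In MHC II-high C1q-low cells Ccr2 was lower on HFD, at a log2 fold change of -0.77 (SE 0.19), and was not called either. It stood there at 1047 and 1140 CPM on chow and at 640.3 and 707.8 CPM on HFD. Of the 24 genes tested in that class 9 had a positive log2 fold change, beside 2381 of all 4648. The median was -0.20 over the 24 genes and 0.025 over all genes.

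The genes whose levels were most like the mean of the 7 over the 12 sums of the 3 main classes and 4 mice, on log2(CPM + 1), were Msrb1 (Pearson's r 0.98), Gda (0.98), Mrpl30 (0.97), Shisa5 (0.97) and Ltb4r1 (0.97), out of 4464 genes compared. For 6 single genes the nearest were Arpc1b for Plac8 (0.99), Slfn1 for Chil3 (0.98), Trem3 for Hp (0.98), Emp3 for Fn1 (0.99), Msrb1 for Mgst1 (0.97) and 4930453N24Rik for F13a1 (0.93). The 12 sums come from 4 libraries and 3 ordered classes, so these values describe likeness along the path. F13a1 had the least close neighbour of these 6.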

How the data were processed

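Single-cell RNA-sequencing (10x 3′ v2, 1 well per mouse) of colonic macrophages and monocytes of 2 chow-fed and 2 HFD-fed mice was analysed. Per the methods, kallisto (0.46.0) and bustools (0.39.2) assigned reads to Ensembl 97 transcripts. The authors filtered cells and genes and deposited raw UMI counts per gene and cell, without normalization. The library of each cell was read from its name. Of 11820 genes 11819 were matched by identifier to GENCODE M21 (GRCm38).

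Members and lists were chosen with earlier results of these data known. The 7 members are named throughout; of other genes those that define classes, up to 4 examples and all called genes of the monocyte list, and genes of like pattern by a fixed rule. Igha, Jchain and the 4 measured neutrophil genes were named after their values were seen. The planned 3-class Otsu limits on log2(share + 1) put the lower C1q limit at 2.36 per 10000 UMIs, below 1 UMI in most cells, and left 12 MHC II-low C1q-low and 2 and 4 MHC II-high C1q-low cells in chow mice, under the minimum of 20. Fixed limits, foreseen as the other setting, are therefore reported, and Otsu limits are given as an alternative.

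UMI counts were summed per mouse and class. A gene entered a test when its CPM exceeded 1 in 2 or more sums and 5% or more of the cells held a UMI of it. The test was edgeR's quasi-likelihood test (4.0.16; TMM, FDR 1%), with DESeq2 (1.42.0) as an alternative. Interactions and the Lyve1 or Cd163 contrast carried a term for each mouse. The test was tried on simulated sums in which 200 genes had a log2 change of 2. Counts were drawn at the same fixed dispersion for every gene and class, not at that of these data. The test recovered 57.1% in MHC II-low C1q-low cells (4471 genes), 44.9% in MHC II-high C1q-low cells (4648) and 90.4% in C1q-high cells (5134). Cells under 2000 UMIs (982) were left out of thinned shares. Scrublet in scanpy (1.11.5) marked 0.757% of cells. Nothing in the labels gives separate litters or days, so p-values measure the spread between these mice, and an exact permutation test of 2 against 2 mice cannot go below 0.33. Some results by gene are not reported here.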

Additional observations from a re-analysis of the deposited data

Results flagged for a closer look

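The fitted diet effect on 3 of the 7 genes was larger in MHC II-high C1q-high than in MHC II-low C1q-low cells. The difference on the log2 scale was 3.13 for Plac8, 2.39 for Chil3 and 3.56 for Hp in edgeR's interaction model over 8 sums of 4 mice, past its threshold. The genes were chosen for persistence in MHC II-high cells on HFD, so these values restate that choice and are no test of it. The share of free RNA in them was not tested.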

How the results depend on the processing

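No paired analysis was possible because the groups share no replicate numbers. Of the log2 fold changes of the 7 genes under other settings, 222 kept direction and call, 13 gained a call, 3 lost it and 12 turned; the causes were not tested. In MHC II-low C1q-low cells 23 genes were called over all genes, 56 with the Otsu upper C1q limit, 77 without the filter on low counts and 29 to 121 with 1 mouse left out. In MHC II-high C1q-low cells 56 were called, 92 without doublets, 173 without the filter and 1 to 35 with 1 mouse left out (1 without chow mouse 9). In C1q-high cells 256 were called, 553 with either Otsu limit, 551 without the filter and 15 to 492 with 1 mouse left out (15 without HFD mouse 3). The interaction with MHC II-high C1q-low cells gave 0 calls, and 2 to 22 with 1 mouse left out. That with C1q-high cells gave 68, 105 with the Otsu upper C1q limit and 32 to 76 with 1 mouse left out. The Lyve1 or Cd163 contrast gave 69, 247 with chow mice alone and 16 to 75 with 1 mouse left out.

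The log2 fold change of Vcan in MHC II-low C1q-low cells turned to -0.16 with the Otsu upper C1q limit and ranged from -0.22 to 1.26 with 1 mouse left out. That of Fn1 ranged from -0.59 to 0.13, and that of Chil3 in MHC II-high C1q-low cells from -0.052 to 2.65. In the interaction with those cells Plac8 ranged from -0.081 to 0.77, Chil3 from -0.24 to 1.84 and Vcan from -1.07 to 6.35, and Mgst1 turned to -0.14 with the Otsu upper C1q limit. In the Lyve1 or Cd163 contrast Plac8 was 0.71 with chow mice alone and ranged from -1.11 to 0.14. The median percent kept in MHC II-high C1q-low cells was 14 on chow, and 0.571 with Otsu limits, from 2 and 4 cells. On HFD it was 13.4, 17.2 with thinned cells, 14.2 as a mean over cells, 9.57 with Otsu limits and 8.4 with the Otsu upper C1q limit. In C1q-high cells on HFD it was 3.66, and 6.27 and 6.26 with these limits. With Otsu limits the first 2 classes were not tested, since chow mouse 11 held 12 MHC II-low C1q-low cells and the chow mice 2 and 4 MHC II-high C1q-low cells. With 2 mice per diet and 28 and 38 MHC II-high C1q-low cells on chow, 44.9% of simulated log2 changes of 2 were recovered in this class. Smaller changes, and the spread that each gene has in these data, were not simulated.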
